A study of Homo sapiens with 2 samples.

Results

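The genes described here are transcription factors of the ETS, forkhead, SOX, KLF, GATA, TEAD, E2F, ATF, MAF, AP-2 (TFAP2) and STAT families. They were taken by symbol from the platform's probe annotation, and not by any measured value. The choice gave 123 of the 13763 genes named there. Among the ETS genes ETV2, ETV3, ETV6 and ETV7 were included and ETV1, ETV4 and ETV5 were not, KLF2 was left out of the KLF genes, and so were antisense and overlapping transcripts. ELK, C/EBP, BHLHE and NFAT symbols were searched for as well, but none was named in the annotation used here.

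S2-013, an established line of pancreatic cancer cells, was compared with and without a MEK inhibitor. In both groups HOXB7, a homeobox transcription factor, had been knocked down and a HOXB7 rescue plasmid had then been transfected, so no group here has the line's native HOXB7 state. Per the series' design text, the arrays served the search for factors and pathways under HOXB7-MEK signalling. The sources used here do not give the inhibitor's name, its dose or the duration. There was 1 array per group. No value therefore has a replicate error, no test was possible, and "higher" and "lower" below describe these 2 arrays only.

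MEK phosphorylates and activates ERK, the last kinase of the RAS-RAF-MEK-ERK cascade. ERK phosphorylates nuclear ETS factors such as ETS1, ETS2 and the ELK proteins. Of these, the ELK proteins act with serum response factor (SRF) at immediate early genes. ERK also phosphorylates FOXO3 and KLF factors. Changes of that kind are made on the protein and an expression array does not see them, so the values here concern the transcripts alone. In the pancreas SOX9 marks progenitor and duct cells, GATA6 and FOXA2 belong to the endodermal programme, and MAFA belongs to insulin-producing cells.

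The deposited values are on a log2 scale, so a difference of 1 is a 2-fold change. All differences are given as inhibitor minus no inhibitor. A gene was counted as measured when at least 1 of its values reached a floor of 4.78, the median of the genes' levels averaged across both arrays. The floor kept 74 members and 7164 genes in all. Of the 123 members 68 reached the floor in both arrays, 6 in 1 array only (FOXQ1, FOXO4, FOXA3, SOX12, SOX13 and GATA6) and 49 in neither. A gene that passes through 1 array only is more likely to show a difference, so values for those 6 are marked where they matter. The 49 members below the floor had differences from -0.47 (FOXN3) to 0.27 (ETV2). No detection call was used, so whether a dim probe set lay above background is unknown.

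The cells carried their line's epithelial markers. EPCAM, an epithelial adhesion molecule, read 10.5 in both arrays, and the keratin KRT18 read 11.3 with the inhibitor and 11.6 without it. Of 9 named ductal markers 8 were above the floor, 1 of them (KRT7) only with the inhibitor. Their median difference was -0.02, from -1.90 (CEACAM6) to 0.95 (CLDN4). Few markers of other cell types passed: 1 of 4 named fibroblast markers, 2 of 4 leukocyte markers, 2 of 5 endothelial markers and 1 of 5 acinar and endocrine markers reached it. These were DES (-0.54), CD68 (-0.43), TYROBP (-0.39), ESAM (-0.63), CLDN5 (-0.06) and CTRC (0.30). CD68 was well above the floor, with 8.95 without and 8.53 with the inhibitor. DES read 5.92 and 5.38, ESAM read 5.72 and 5.09, and TYROBP reached the floor only without the inhibitor (4.85 and 4.46). CTRC reached it only with the inhibitor (4.66 without and 4.96 with it). The fibroblast markers DCN and LUM and the endothelial marker KDR did not exceed 3.28 in either array. HOXB7 itself differed by 0.01. The arrays had medians of 3.46 with the inhibitor and 3.49 without it over 53617 probe sets.

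SOX9 and FOXL1 were the members that differed by at least 2-fold, and both were lower with the inhibitor. That is 2 of 74 members (2.70%), against 1.05% of all 7164 genes that were at least 2-fold lower. No member was at least 2-fold higher, against 0.628% of all genes. At 1.5-fold, 5 members were lower (6.76%), against 3.60% of all genes, and 2 were higher (2.70%), against 4.62%. FOXQ1, 1 of those 5, passed the floor only through the array without the inhibitor. Among the 68 members that reached the floor in both arrays, 4 were lower by 1.5-fold (5.88%). The share of all genes under that stricter filter was not computed, and the 3.60% above is for the looser floor. The other 67 members lay within 1.5-fold in either direction. With so few members past either threshold, these shares are descriptions of 2 arrays.

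**Figure D1:**
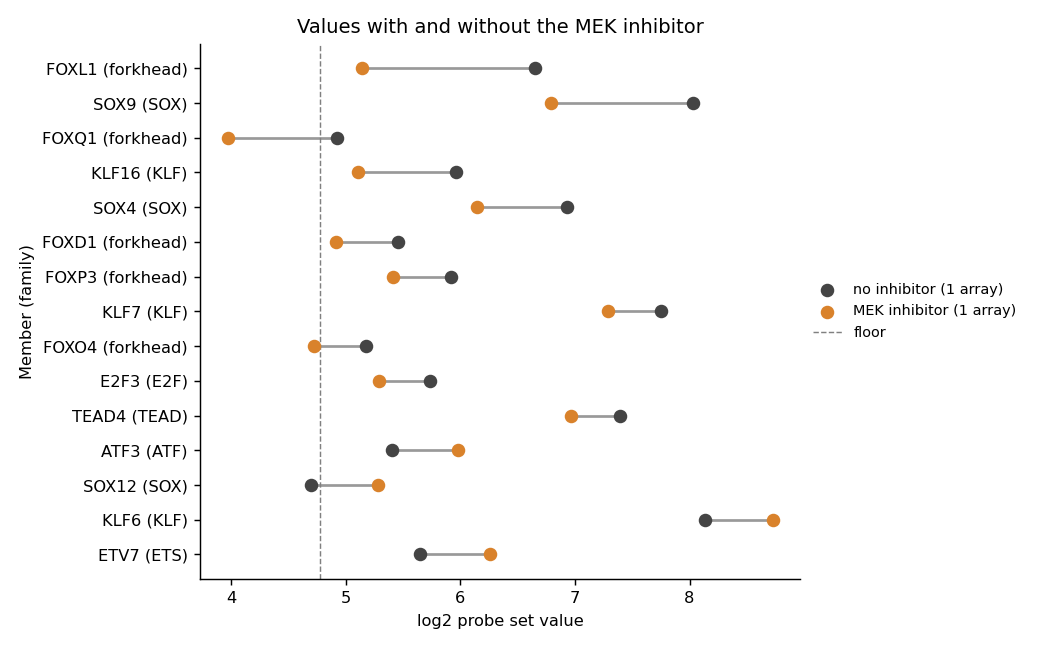
log2 probe set values of the 15 members above the floor that differed by at least 0.4, with 1 point per array (grey without, orange with the MEK inhibitor) and the floor as a dashed line. FOXL1 and SOX9 have the widest gaps, 11 of the 15 were lower with the inhibitor, and FOXQ1, FOXO4 and SOX12 cross the floor.

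The 5 genes past 1.5-fold downward were FOXL1, SOX9, FOXQ1, KLF16 and SOX4, and the 2 upward were ETV7 and KLF6. Nearest to that threshold from inside were SOX12 (1.496-fold higher), ATF3 (1.493-fold higher) and FOXD1 (1.46-fold lower). Subtracting the median difference of all genes, or a loess trend on level, brought ETV7 and KLF6 under 1.5-fold as well, so that no member was counted as higher. With the loess trend subtracted FOXQ1 also passed 2-fold (-1.07). The 5 lower genes stayed past 1.5-fold under each of these scalings and after quantile normalization.

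For 4 of these 7 genes the RefSeq promoter table holds an entry. The 250 bases before their starts are shown because these are the regulatory sequences nearest to the members that differed. They are written 5′ to 3′ in the direction of the gene, on build GRCh38.p14. Capitals mark matches to any of 15 short motifs on either strand, and neighbouring matches can run together.
SOX4, chr6:21593501-21593750, plus strand: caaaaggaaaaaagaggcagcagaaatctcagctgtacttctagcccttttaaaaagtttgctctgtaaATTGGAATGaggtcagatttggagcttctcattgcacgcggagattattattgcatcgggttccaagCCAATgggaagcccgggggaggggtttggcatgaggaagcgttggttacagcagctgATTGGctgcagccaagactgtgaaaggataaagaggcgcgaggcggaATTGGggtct
FOXQ1, chr6:1311848-1312097, plus strand: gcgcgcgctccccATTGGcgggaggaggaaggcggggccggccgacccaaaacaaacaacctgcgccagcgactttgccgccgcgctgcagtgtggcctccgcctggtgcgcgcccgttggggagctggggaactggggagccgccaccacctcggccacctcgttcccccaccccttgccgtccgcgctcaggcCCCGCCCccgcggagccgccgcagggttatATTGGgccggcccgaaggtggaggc
KLF16, chr19:1863580-1863829, minus strand: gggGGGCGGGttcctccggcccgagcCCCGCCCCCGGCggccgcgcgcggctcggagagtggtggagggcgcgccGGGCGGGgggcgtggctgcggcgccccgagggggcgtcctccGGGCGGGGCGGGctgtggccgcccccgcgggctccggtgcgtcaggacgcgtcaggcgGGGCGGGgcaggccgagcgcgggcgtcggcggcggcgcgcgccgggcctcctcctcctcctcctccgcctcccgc
KLF6, chr10:3785210-3785459, minus strand: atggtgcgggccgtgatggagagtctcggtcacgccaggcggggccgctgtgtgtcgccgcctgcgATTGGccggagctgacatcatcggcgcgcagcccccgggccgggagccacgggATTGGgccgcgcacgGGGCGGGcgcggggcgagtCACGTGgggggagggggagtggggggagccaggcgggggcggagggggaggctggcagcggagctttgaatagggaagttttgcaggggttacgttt
The sequence before SOX4 holds 4 CCAAT boxes (CCAAT, or ATTGG on the other strand). It also holds 1 match to the TEAD letters CATTCC, as GGAATG from base 178 to base 173 before the start, which overlaps a CCAAT box. FOXQ1 has 2 CCAAT boxes and 1 GC box (GGGCGGG). KLF16 has 6 GC boxes, 2 of which overlap each other, and 1 AP-2 match (GCCNNNGGC) overlapping another. KLF6, the member that was higher, has 1 GC box, 1 E-box (CACGTG) and 2 CCAAT boxes. None of the 4 sequences holds the AP-1 letters TGACTCA, the cyclic AMP response element TGACGTCA, the ETS letters CCGGAAGT or the TATAAA box. GC content was 48.8% for SOX4, 72.4% for KLF6, 74.0% for FOXQ1 and 86.4% for KLF16. These are matches of letters and say nothing of binding.

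Across families, 93 of the 123 members matched the promoter table of 27305 genes. The GC box was in 50.5% of member promoters and 31.4% of all, in a window whose median GC content was 63.2% for members and 58.0% for all. The AP-2 letters were in 30.1% against 19.7%, CCAAT in 38.7% against 33.0%, and CACGTG in 12.9% against 6.49%. The E2F letters TTTGGCGC were in 5 member promoters (5.38%) against 0.553% of all, and TTTCGCGC was in none of them against 0.469%. TGACTCA was in 2.15% against 4.16%, TGACGTCA in 4.30% against 1.76%, and CCGGAAGT in none against 3.64%. The forkhead letters GTAAACA were in 2.15% against 2.98%, the STAT letters TTCNNNGAA in 5.38% against 6.78%, and CATTCC in 7.53% against 11.9%. The MAF letters TGCTGAC was in 1.08% against 3.42%, the C/EBP letters TTGCGCAA in none against 0.110%, and TATAAA in 11.8% against 11.1%.

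SOX9, an HMG-box factor of pancreatic progenitor and duct cells, read 8.03 without the inhibitor and 6.79 with it. The value was lower by 2.37-fold, and both values lay well above the floor. Its difference of -1.24 ranked 36 from the lowest of 7164 genes. Of the 500 measured genes nearest to SOX9 in mean level, 95% lay between -0.76 and 0.58, and 5 were as low. SOX4, a factor of progenitor cells and of epithelial-mesenchymal transition, read 6.93 without and 6.15 with the inhibitor, a difference of -0.78. That value is inside the central 95% of its neighbours in level, which ran from -0.82 to 0.65.

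The closest relatives of these genes had smaller or opposite differences. Those above the floor (SOX8, SOX10 and SOX12) were dim, so whether their probe sets report the gene is not known. SOX8 and SOX10 form the SoxE group with SOX9. SOX8 read 5.31 without and 5.55 with the inhibitor, and SOX10 read 5.17 and 5.13. SOX11 and SOX12 form the SoxC group with SOX4. SOX12 read 4.70 without and 5.28 with the inhibitor, a difference of 0.58, opposite in direction to SOX4. It passed the floor only with the inhibitor, and its second probe set read a difference of 0.31. SOX11 was below the floor in both arrays. Of 19 named SOX genes 7 were above the floor, 5 lower and 2 higher, with a median of -0.04. SOX7 (-0.02), a SoxF factor of endothelium and endoderm, and SOX13 (-0.25), a SoxD factor that reached the floor in 1 array only, complete the 7. The measured ductal markers ran from lower than SOX9 (CEACAM6, -1.90) through the keratins KRT18 (-0.29), KRT8 (-0.19), KRT19 (-0.07) and KRT7 (0.35) to CLDN4 (0.95). KRT7 reached the floor only with the inhibitor (4.56 without and 4.91 with it), and CLDN4 read 4.90 without it. In RNA from whole cultures, fewer cells that express a gene and less RNA per cell cannot be told apart.

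FOXL1, a forkhead factor known from the mesenchyme beneath the gut epithelium, had the lowest difference of all members. It read 6.65 without the inhibitor and 5.14 with it, which is 2.85-fold lower and near the floor. It ranked 18 from the lowest of all genes, and 1 of its 500 neighbours in level was as low. FOXL1 has 1 probe set and is known from another lineage, so whether that probe set reports the gene is not known. FOXQ1, a forkhead factor linked to epithelial-mesenchymal transition in carcinomas, read 4.92 without and 3.97 with the inhibitor. Its difference of -0.95 starts from a dim signal that only just passes the floor, and only without the inhibitor. A gene whose mean lies below the floor, as here, is kept only if its arrays differ, so its neighbours in level give no measure of this value.

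**Figure D2:**
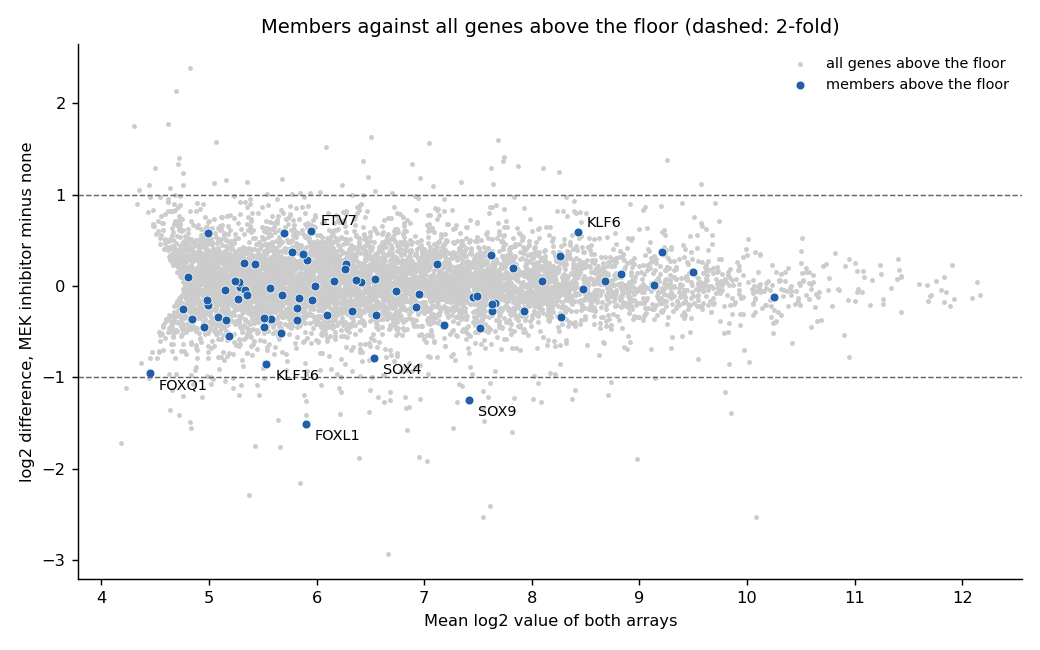
log2 difference (inhibitor minus none) against the mean log2 value of both arrays for the 7164 genes above the floor (grey) and the 74 members among them (blue), with dashed lines at 2-fold. FOXL1 and SOX9 lie below the lower line, while most members lie within the band of all genes.

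Of 43 named forkhead genes 25 were above the floor, 16 of them lower and 9 higher, with a median of -0.15. Without the filter the median of all 43 was -0.03. FOXD1, a factor of kidney stroma, read 5.46 without and 4.91 with the inhibitor (-0.55), and its second probe set, below the floor, read -0.24. FOXP3, the master factor of regulatory T cells, read 5.92 and 5.41 (-0.51). These probe sets are dim and their genes belong to other lineages, so it is not known whether they report the gene. FOXP4, a relative expressed in epithelia, read 6.71 without and 6.40 with the inhibitor, and FOXP1 differed by -0.09.

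The pioneer factors of endoderm gave small differences near the floor. FOXA2 read 5.76 without and 5.40 with the inhibitor, and FOXA3 read 5.02 and 4.66, the latter below the floor. FOXA1 was below the floor in both arrays. The FOXO factors, which AKT keeps out of the nucleus, differed among themselves. FOXO1 read 5.59 without and 5.96 with the inhibitor (0.37), the highest difference of the forkhead genes. FOXO4 read 5.18 and 4.73 (-0.45), and reached the floor only without the inhibitor. FOXO3 differed by 0.05 in 1 probe set and 0.18 in the other. FOXM1, which drives genes of G2 and mitosis, read 8.66 without and 8.71 with the inhibitor. FOXK1 (0.07), FOXK2 (-0.09) and FOXJ2 (0.05) were also well measured and close to 0. FOXJ3 (-0.226) and FOXN2 (-0.193) were lower by more than 0.186, the median size of difference over all genes. FOXD4 (0.07), FOXD4L1 (-0.15) and FOXD4L6 (-0.15 and 0.03 in its 2 probe sets) are near-identical copies, so which copy a probe set reads is uncertain.

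The lists of known FOXO and FOXM1 targets can be set beside their factors. Of 9 measured FOXO targets 6 were higher and 3 lower, with a median of 0.21. SESN1, 1 of those 6, reached the floor only with the inhibitor (4.60 without and 4.92 with it). Under the stricter 75th percentile filter 6 targets remained measured, 4 of them higher, and their median was 0.42. BNIP3, a mitophagy receptor, had the highest difference (1.37) and TXNIP, a thioredoxin inhibitor also under control of glucose, the lowest (-1.27). Of 15 measured FOXM1 targets 13 were lower, none by 1.5-fold, with a median of -0.16. The mitotic kinase gene PLK1 read 10.05 without and 9.54 with the inhibitor, and the cyclin gene CCNB1 differed by 0.19. The FOXM1 transcript thus differed by 0.05 while most of its listed targets were slightly lower. Of all genes 46.1% were lower. The targets' median lies within 0.17, the median disagreement between probe sets of 1 gene. That disagreement concerns single genes, and the error of a median over 15 genes was not measured.

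**Figure D3:**
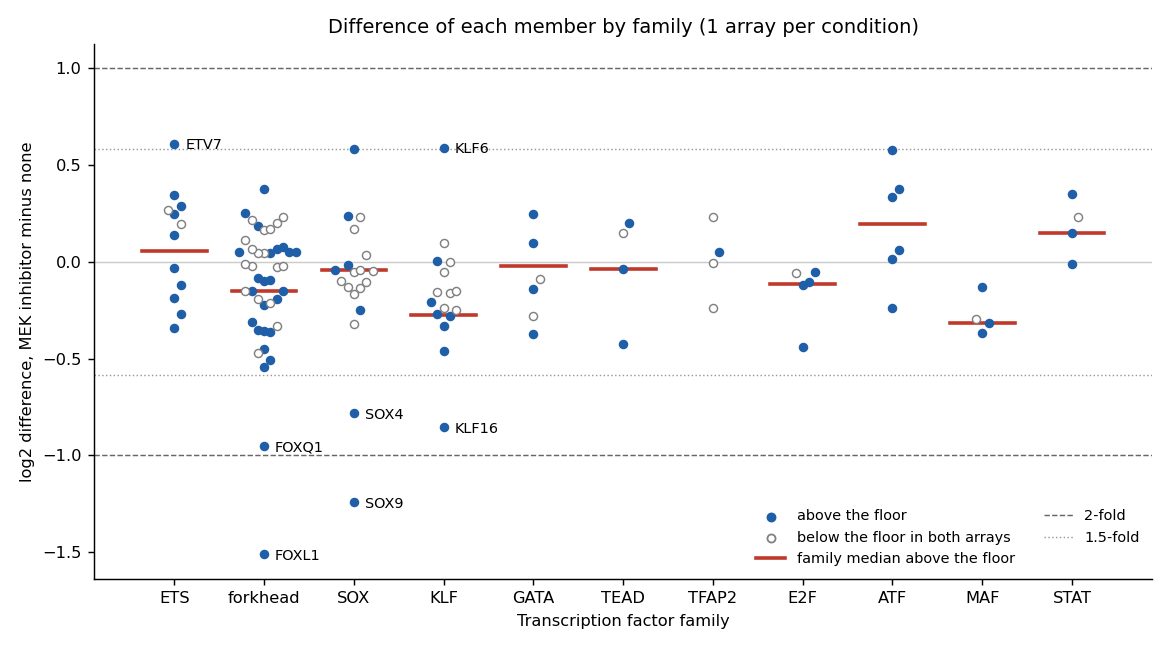
log2 difference of all 123 members by family. Filled points lie above the floor, open points below it in both arrays, red bars are medians of families with at least 3 members above the floor, and lines mark 1.5-fold (dotted) and 2-fold (dashed). KLF and MAF have the lowest medians (-0.27 and -0.32) and ATF the highest (0.20).

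The KLF zinc finger factors bind GC-rich and CACCC sites. Of 16 named KLF genes 8 were above the floor, 6 lower and 2 higher, and the median was -0.27. KLF16 read 5.96 without and 5.10 with the inhibitor, 1.81-fold lower, and 6 of its 500 neighbours in level were as low. KLF7 read 7.75 and 7.29 (-0.46). KLF5, which supports proliferation of gut and pancreatic epithelium, read 8.07 and 7.79 (-0.28). KLF3, a repressor, read 7.76 and 7.50 (-0.27), and KLF10, a TGF-beta-inducible factor, read 8.44 and 8.11 (-0.33). KLF14 differed by -0.21.

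KLF6 stood on the other side. It read 8.13 without the inhibitor and 8.72 with it, 1.505-fold higher, and 12 of its neighbours in level were as high. KLF4, a factor of epithelial differentiation, read 5.98 without and 5.99 with the inhibitor. The 4 lower and brightly measured genes (KLF3, KLF5, KLF7 and KLF10) had differences within a narrow range, from -0.46 to -0.27. All of these differences are inside the 95th percentile of 0.57 by which probe sets of 1 gene disagreed in 175 genes, apart from KLF16 and KLF6.

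ETS factors share a DNA-binding domain that reads GGAA. Of 12 named members 10 were above the floor, 5 higher and 5 lower, with a median of 0.05. ETS1, a factor that ERK phosphorylates, read 8.76 without and 8.90 with the inhibitor. ETS2, its closest relative and also an ERK substrate, read 8.49 and 8.46. ELF1 read 10.31 and 10.19, ELF2 differed by 0.29 and ELF4 by 0.24. The epithelial factor EHF read 7.45 without and 7.79 with the inhibitor (0.34), whereas SPDEF, a factor of secretory cells, read 5.25 and 4.91 (-0.34).

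The ETV genes split. ETV7, a relative of the repressor ETV6, read 5.65 without and 6.26 with the inhibitor, 1.52-fold higher. Of its 500 neighbours in level 21 were as high. ETV6 read 7.75 and 7.56 (-0.19) and ETV3, another repressor, read 6.47 and 6.20 (-0.27). For the scale of these values, the PEA3-group genes ETV1, ETV4 and ETV5, which are not among the members, differed by -1.72, -1.75 and -1.55. ETS1, ETS2 and the other 8 members all lay within a difference of 0.61.

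The SRF list stands beside the ETS factors, since ternary complex factors of that family act with SRF. Those factors are the ELK proteins, none of which was named in the annotation. SRF read 7.56 without and 7.36 with the inhibitor. Of 10 measured genes in the list, SRF itself included, 9 were lower with a median of -0.49, and 4 were past 1.5-fold. Of all 7164 genes 46.1% were lower and 3.60% were at least 1.5-fold lower. FOSB, 1 of those 4, reached the floor only without the inhibitor (5.33 without and 4.72 with it). EGR1 had the lowest difference (-2.94) and the phosphatase gene DUSP1 the highest (0.27). The SRF coactivator gene MRTFB differed by 0.43, the highest difference in the list of E2F and ELK partners.

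E2F factors control entry into S phase. All 4 measured members were lower, with a median of -0.11, and none by 1.5-fold. E2F1, an activator, read 7.51 without and 7.40 with the inhibitor. E2F3, also an activator, read 5.74 and 5.29 (-0.44). The repressors E2F7 and E2F8 differed by -0.05 and -0.11. All but E2F3 lay within 0.17, the median disagreement between probe sets of 1 gene. E2F2, with 4.52 and 4.46, was below the floor.

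The E2F letters stand close to the starts of E2F1 and E2F2 in the RefSeq promoter table. They are shown with up to 16 bases on each side, 5′ to 3′ on GRCh38.p14, with TTTGGCGC in capitals.
E2F1, chr20:33686386-33686421, minus strand: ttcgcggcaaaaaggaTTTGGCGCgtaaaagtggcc
E2F2, chr1:23531252-23531291, minus strand: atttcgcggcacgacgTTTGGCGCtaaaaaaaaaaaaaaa
The match lies 20 to 13 bases before the start of E2F1 and 42 to 35 bases before that of E2F2. The same letters occur farther from the start of ATF6B (202 to 195), FOXJ3 (207 to 200) and FOXN1 (86 to 79). ATF6B differed by 0.38 and FOXJ3 by -0.23, and FOXN1 was below the floor.

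E2F factors bind DNA as dimers with DP proteins and are held in check by pocket proteins. The DP gene TFDP1 read 7.22 without and 6.68 with the inhibitor (-0.53), and TFDP2 read 5.89 and 5.98 (0.09). The retinoblastoma gene RB1 read 8.56 and 8.88 (0.32), and RBL1 and RBL2 each differed by 0.16, within the median probe set disagreement. The list of E2F and ELK partners also holds SRF and the SRF coactivator genes MRTFA (0.21) and MRTFB (0.43). Of its 8 genes 6 were higher and none was past 1.5-fold. Their median was 0.16. Of 19 measured E2F targets 11 were lower and 8 higher, with a median of -0.04, and none was past 1.5-fold. The lowest was the replication factor gene MCM10 (-0.44) and the highest GINS2 (0.36), a subunit of the replicative helicase.

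**Figure D4:**
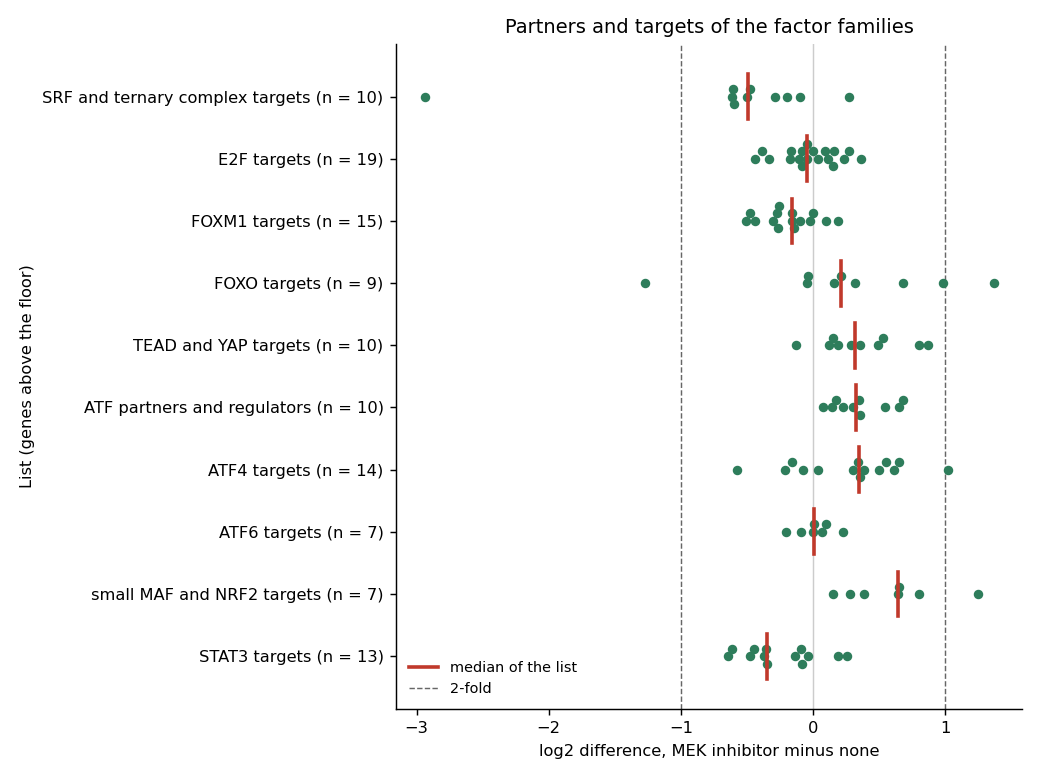
log2 difference of the genes above the floor in 10 lists of partners and targets of the families, with the list's median as a red bar and dashed lines at 2-fold. The small MAF and NRF2 targets (0.64), ATF4 targets (0.35) and ATF partners (0.32) have the highest medians, and SRF targets (-0.49) and STAT3 targets (-0.35) the lowest.

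ATF factors are bZIP proteins of the stress responses. All 6 named members were above the floor, 5 higher and 1 lower, with a median of 0.20. When the median difference of all genes was subtracted, ATF4 turned lower and the count was 4 against 2. ATF3, an early stress-induced factor, read 5.40 without and 5.98 with the inhibitor (0.58), and 31 of its 500 neighbours in level were as high. ATF6B read 9.02 and 9.39 (0.38) and ATF2, a substrate of stress-activated kinases, read 8.09 and 8.43 (0.33). ATF4, the factor of the integrated stress response, read 9.13 and 9.14. ATF6, a sensor of unfolded proteins, read 8.06 and 8.12, and ATF5 read 5.94 and 5.70 (-0.24).

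The partners and regulators of ATF factors were higher in all 10 measured genes, with a median of 0.32, while 3858 of all 7164 genes were higher. CREM, 1 of the 10, reached the floor only with the inhibitor (4.68 without and 4.97 with it). Without the filter 10 of 11 were higher. JDP2 (0.68), a bZIP repressor, and DDIT3 (0.65), the stress factor CHOP, were past 1.5-fold, and CREB3L2 was lowest (0.07). EIF2AK3, the kinase PERK upstream of ATF4 translation, read 6.10 without and 6.64 with the inhibitor. Of 14 measured ATF4 targets 10 were higher, with a median of 0.35. The asparagine synthetase gene ASNS was highest (1.02) and the tryptophanyl-tRNA synthetase gene WARS1 lowest (-0.57). DDIT3 is held in both lists. The 7 measured ATF6 targets had a median of 0.00, from -0.20 (SDF2L1) to 0.23 (CALR). ATF4 is controlled largely by translation, which these arrays do not measure.

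TEAD factors bind DNA for the coactivators YAP1 and TAZ. TEAD1 read 7.73 without and 7.93 with the inhibitor (0.20), TEAD3 read 5.35 and 5.31, and TEAD4 read 7.39 and 6.97 (-0.43). YAP1 read 7.95 and 7.50 (-0.45), the lowest of the TEAD partners and Hippo kinases, and the TAZ gene WWTR1 read 5.40 and 5.60 (0.21). VGLL1, a cofactor that competes for TEAD, read 9.39 and 9.95 (0.56), the highest of that list. Of its 9 measured genes 6 were lower, with a median of -0.18. MOB1B, 1 of those 6, reached the floor only without the inhibitor. Of 10 measured TEAD and YAP targets 9 were higher, with a median of 0.32, from -0.13 (DOCK5) to 0.87 (AJUBA). Among all 7164 genes 3858 were higher. Of the factors and coactivators above, TEAD4 and YAP1 were lower and TEAD1 and WWTR1 higher, while most listed targets were higher.

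GATA factors gave small and mixed differences. Of 6 named genes 4 were above the floor, 2 higher and 2 lower, with a median of -0.02. GATA3, known from T cells and breast epithelium, read 6.15 without and 6.40 with the inhibitor. GATA6 differed by 0.10 at the floor. GATA1, the erythroid factor, differed by -0.37, and GATA5 read 5.34 and 5.20. GATA1 belongs to another lineage, so whether its probe set reports the gene is not known. Of 14 endoderm and pancreas factors 7 were named and 2 reached the floor, ONECUT2 (-0.49) and PDX1 (-0.07). TFAP2C, an AP-2 factor of surface ectoderm and breast, read 6.39 and 6.44, and the other 3 named AP-2 genes were below the floor.

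MAF factors are bZIP proteins. The 3 members above the floor were all lower, with a median of -0.32. The small MAF proteins lack an activation domain and bind DNA together with NRF2. MAFG read 6.25 without and 5.94 with the inhibitor (-0.32) and MAFF read 5.90 and 5.77 (-0.13). MAFA, a factor of beta cells, read 5.34 and 4.97 (-0.37), and whether its dim probe set reports the gene is not known. MAF was below the floor in both arrays.

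On the other side of these dimers, NRF2 itself (NFE2L2) read 7.33 without and 7.34 with the inhibitor, and KEAP1, which targets NRF2 for degradation, read 7.62 and 8.18 (0.56). Of 4 measured MAF partners 3 were higher, NRF2 among them, with a median of 0.12, and NFE2L3 was lowest (-0.06). Under each of the 3 scalings 2 were higher and 2 lower. All 7 measured targets of NRF2 and small MAF dimers were higher, with a median of 0.64, from 0.15 (OSGIN1) to 1.25 (TXNRD1). Among all 7164 genes 3858 were higher. The MAFG transcript was thus slightly lower, MAFF lay within the median probe set disagreement of 0.17, and MAFK was not named in the annotation. The NRF2 transcript was nearly equal, while the listed targets were higher.

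STAT factors carry cytokine signals from JAK kinases. STAT3 read 9.42 without and 9.57 with the inhibitor (0.15). STAT5A read 5.70 and 6.05 (0.35) and STAT5B read 5.29 and 5.28. STAT4 was below the floor. Among JAK kinases and STAT inhibitors 5 of 9 were higher, with a median of 0.03. After the loess trend was subtracted 3 of 9 were higher and the median was below 0. JAK1 was highest, with 9.44 and 9.71 (0.27), and the feedback inhibitor SOCS3 was lowest, with 6.04 and 5.59 (-0.45).

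Listed STAT3 targets were lower in 11 of 13 genes, with a median of -0.35, from -0.64 (TIMP1) to 0.26 (PIM1). Of all 7164 genes 46.1% were lower. MCL1 and JUNB, which belong to this list and to the SRF list, differed by -0.61 and -0.48, so the lists are not independent.

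Lists for families with no named member gave few values. The calcineurin list, which concerns NFAT, had 2 measured genes, CABIN1 (0.02) and RCAN3 (0.09), and of the NFAT targets TNF alone was measured (0.31). The 6 measured C/EBP targets were 3 higher and 3 lower, with a median of 0.11, from -1.56 (the siderophore-binding protein gene LCN2) to 2.39 (the chemokine gene CCL20). CCL20 (3.63 without and 6.01 with the inhibitor) and SAA1 (4.19 and 5.18), both among the 3 higher, reached the floor only with the inhibitor. Keeping genes whose mean reached the floor turned the median of the C/EBP targets to -0.21, and the 75th percentile filter turned it to -1.13. The 8 measured clock genes, which concern BHLHE factors, had a median of -0.01, from -0.20 (CRY2) to 0.51 (DBP). The other ERK-linked factors (EGR1, ETV1, ETV4, ETV5, FOSL1 and MYC) were all lower, with a median of -1.63, against 46.1% lower among all genes. ETV1, ETV4 and ETV5 fell below the floor with the inhibitor (3.32, 4.55 and 4.06). The 75th percentile filter kept EGR1, FOSL1 and MYC, and the median was then -0.35.

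Taken over all families, 45 of 74 members were lower (60.8%) and 29 higher, against 46.1% lower among all genes. The members' median difference was -0.10, against 0.03 for all genes. Their median size of difference, without sign, was 0.24, against 0.19. Over the 68 members at the floor in both arrays 60.3% were lower, with a median of -0.09. The share of all genes under that filter was not computed. Over all 123 members, with no filter, 61.8% were lower, against 49.1% of all genes. How far such values vary between cultures was not measured.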

How the data were processed

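Total RNA of 2 cultures was hybridised to Affymetrix whole-transcript arrays, 1 array per group, and groups were taken from the sample titles. RNA was extracted with RNeasy and 100 ng were labelled with the GeneChip WT PLUS kit, per the labels' protocols. The authors deposited 1 value per probe set and array. The values are taken to be on a log2 scale because they run continuously from 1.16 to 13.4 with nearly equal quantiles in both arrays. Affymetrix Expression Console 1.3 was used, per the submitters' processing notes. Its settings were not given in the sources used here. Methods that equalise quantiles remove differences in total RNA, and summaries compress large folds.

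Of 53617 probe sets, 16098 had 1 gene symbol, none had several and 37519 had none. All 123 member symbols were in the RefSeq gene table. Each gene was represented by its probe set of highest mean, and small RNA symbols were set apart. GATAD, ATF7IP, MAF1, FOXRED, ELFN, STATH and MAFIP symbols belong to other proteins and were not counted as members. Differences were computed from the deposited log2 values and used unscaled. The number of arrays limits the precision. Named genes are all members past 1.5-fold, each family's extremes, and each list's highest and lowest gene. Further members and list genes were named after their values were seen. The result of 1 list is not reported here. Members and lists were chosen with earlier results of these data known. The 4 promoters printed, and the search in the 250 bases before the start, were chosen after the values were seen. Counting was checked on simulated data. Alternatives were 3 scalings, 3 filters, averaged probe sets, a 3-fold threshold and literal prefix matching. Python 3.11.15, numpy 2.4.6, pandas 2.3.3, statsmodels 0.14.6 and matplotlib 3.10.9 were used.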

Additional observations from a re-analysis of the deposited data

How the results depend on the processing

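No paired analysis was possible because there was 1 array per group, which also left no array to omit. SOX9 and FOXL1 were at least 2-fold lower under each scaling and filter, the loess trend added FOXQ1 (-1.07), and no member was 3-fold lower. Between 46 and 47 of 74 members were lower under the scalings, and the members' median ran from -0.13 to -0.05 over all alternatives. Of the 2 members at least 1.5-fold higher, none was left after the median difference or the loess trend was subtracted, and 1 with the 75th percentile filter, which removes dim genes. That filter left 3 of the 5 members at least 1.5-fold lower. Over all genes it gave 24 at least 2-fold higher, and 153 higher and 147 lower at 1.5-fold, while 3-fold gave 6 higher and 14 lower. All 45 alternative values of the 7 members past 1.5-fold kept their direction and 41 stayed past it. All 65 alternative family medians (at least 3 measured members) and 127 of 132 list medians moved by no more than 0.17. Literal prefix matching moved no count by more than 1.5 times. Family medians near 0 changed sign in some settings: ETS was -0.03 with the 75th percentile filter and TEAD 0.06 without a filter. The JAK kinase and STAT inhibitor list changed sign after the loess trend was subtracted.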

Other observations

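Some transcripts lie beside the members without belonging to them. Of 9 named antisense, divergent and overlapping transcripts of member or related loci, FOXD2-AS1 alone was above the floor, with 5.19 without and 4.94 with the inhibitor. Of genes whose symbols only begin like a family, MAF1, a repressor of RNA polymerase III, read 6.96 without and 7.58 with the inhibitor (0.62). GATAD2A, a subunit of the NuRD complex, read 7.40 and 6.78 (-0.62). Both were past 1.5-fold, in opposite directions.

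Chromosomal neighbours of the members past 1.5-fold, where named and above the floor, differed in the same direction in some cases and the opposite in others. On chromosome 6, E2F3 (-0.44) and CDKAL1 (0.08) precede SOX4 (-0.78) among protein-coding genes. On chromosome 16, MTHFSD (0.64) lies on one side of FOXL1 (-1.51) and C16orf95 (0.06) on the other. EXOC2 (0.34) lies near FOXQ1 (-0.95), and SCAMP4 (-0.35) near KLF16 (-0.85). PNPLA1 (0.20) and KCTD20 (0.00) lie near ETV7 (0.61), and PITRM1 (0.07) near KLF6 (0.59). Gene order was read from the RefSeq table of GRCh38.p14.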
